A study of Mus musculus with 16 samples.

Results

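The 77 genes described here are the mouse genes whose symbols begin with Mrpl or Mrps followed by a digit, which name the proteins of the mitochondrial ribosome. They were picked by a rule on the symbol alone, with 4 symbols of pseudogene type (ending in -ps) left out, from 20790 genes listed at day 2 and 20658 at day 4, and all 77 stand in both tables. That rule was set with earlier results of these data known. By what is known of the mammalian ribosome, 50 of them belong to the large subunit (48 Mrpl genes with Mrps30 and Mrps18a) and 26 to the small subunit. The remaining member, Mrps36, carries the family's symbol but is known in mammals as a subunit of the 2-oxoglutarate dehydrogenase complex, and was counted in neither subunit.

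Mitochondria carry their own ribosomes, which translate the few respiratory chain proteins encoded by mitochondrial DNA. The ribosomal RNAs are transcribed inside the organelle, whereas all of the ribosome's proteins are encoded in the nucleus, made in the cytosol and imported, together with the assembly factors, methyltransferases and translation factors that work with them. In the intestine, respiration supports both the dividing crypt cells and the absorptive cells, and HNF4A is a nuclear receptor that drives many enterocyte genes.

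Poly(A) RNA was sequenced from epithelial organoids, which are cultures of self-renewing gut epithelium, grown from the jejunum of C57BL/6 mice. All 16 libraries, controls included, came from cells of genotype Villin-CreERT2; Hnf4aflox/flox, in which the Villin promoter drives a tamoxifen-activated Cre in epithelial cells and both copies of Hnf4a carry loxP sites. Cells given 4OHT (hydroxytamoxifen, 0.5 µM for 24 h, followed by splitting of the culture) were compared with cells given DMSO, the vehicle, at day 2 and at day 4, with 4 libraries in each of the 4 groups. The labels' protocol describes a harvest at day 4 only, and neither the number of mice or organoid lines nor a control without Cre is given, so an effect of 4OHT or of active Cre cannot be told apart from loss of Hnf4a. Whether the replicates are separate cultures is not stated either. The p-values therefore rest on how far these particular libraries scatter, and that scatter may be technical.

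Hnf4a, the targeted gene, was measured first. Its level in counts per 1000000 (CPM, scaled between libraries by edgeR's TMM factors) was 1013, 1044, 1046 and 979 in the DMSO libraries at day 2 against 519, 532, 509 and 482 in the 4OHT libraries. At day 4 it was 961, 983, 967 and 956 against 470, 490, 463 and 454. The groups did not overlap on either day, and about 50.3% of the transcript level was left at day 2 and 48.6% at day 4 (log2 fold changes of -0.99 ± 0.05 and -1.04 ± 0.05, SE, n = 4 each; edgeR adjusted p = 8.25e-08 and 1.14e-06). Counts cover the whole gene and the labels do not name the deleted exons, so the fraction of cells that recombined was not measured. Library totals ran from 63.8 M to 93.3 M counts, and every member was covered: the lowest count of any member in any library was 63, for Mrpl53, and the next lowest gene, Mrps33, never fell under 746. All 6 epithelial markers were present in every library, whereas of the stromal markers Col3a1 and Dcn, and of the endothelial markers Cdh5 and Kdr, were not in the tables. Summed levels of the stromal list were 6.31 to 9.52 CPM, nearly all from Vim, those of the immune list 0.281 to 0.815 CPM and those of the endothelial list 0.287 to 0.749 CPM. The epithelium, enterocyte and proliferation lists moved with the groups, and their values stand beside the results below. In bulk RNA of this kind, fewer cells of a type and less RNA per cell cannot be told apart.

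The promoters of some of the members named below are shown here, while those of others, such as Mrps17 and Mrpl2, are not. Each is given as the 300 bases from 250 before to 50 after the RefSeq transcript start (GRCm38.p6), 5′ to 3′ on the gene's strand, in lower case. Capitals mark a match, on either strand, to 1 of 4 motifs of factors known from other mammalian studies to act at genes for mitochondrial proteins or in enterocytes: the palindromic NRF1 motif, CCGGAAG for ETS factors such as GABPA, AAGATGGCG for YY1 and CAAAGTCCA for HNF4. Mrps9 and Mrpl23 are shown because they were lower with 4OHT on both days and higher at day 4 than at day 2, Mrps22 because it fell with 4OHT at day 4 and with time, and Mrps6 and Mrpl20 because they fell most with time. Mrps11 and Mrpl46, chosen after their values were seen, are shown because they lie head to head on opposite strands, with windows that overlap by 141 bases.
Mrps9, chr1:42850983-42851282, plus strand: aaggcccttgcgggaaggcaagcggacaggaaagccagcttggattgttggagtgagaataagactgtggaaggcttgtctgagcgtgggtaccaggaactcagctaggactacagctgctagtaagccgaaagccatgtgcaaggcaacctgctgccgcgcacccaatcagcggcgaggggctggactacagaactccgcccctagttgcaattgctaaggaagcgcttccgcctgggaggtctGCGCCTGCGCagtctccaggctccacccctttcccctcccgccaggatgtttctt
Mrpl23, chr7:142532782-142533081, plus strand: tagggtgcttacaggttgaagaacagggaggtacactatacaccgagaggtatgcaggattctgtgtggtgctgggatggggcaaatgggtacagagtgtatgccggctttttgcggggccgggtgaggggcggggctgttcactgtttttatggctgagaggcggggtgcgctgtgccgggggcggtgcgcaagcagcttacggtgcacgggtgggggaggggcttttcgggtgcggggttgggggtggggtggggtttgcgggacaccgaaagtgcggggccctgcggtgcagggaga
Mrps22, chr9:98601630-98601929, minus strand: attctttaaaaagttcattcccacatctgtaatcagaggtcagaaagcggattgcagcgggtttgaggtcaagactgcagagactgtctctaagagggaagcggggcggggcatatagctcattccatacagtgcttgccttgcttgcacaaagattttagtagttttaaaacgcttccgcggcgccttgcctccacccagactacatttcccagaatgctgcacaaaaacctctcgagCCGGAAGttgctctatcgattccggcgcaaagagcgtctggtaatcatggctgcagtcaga
Mrps6, chr16:92058086-92058385, plus strand: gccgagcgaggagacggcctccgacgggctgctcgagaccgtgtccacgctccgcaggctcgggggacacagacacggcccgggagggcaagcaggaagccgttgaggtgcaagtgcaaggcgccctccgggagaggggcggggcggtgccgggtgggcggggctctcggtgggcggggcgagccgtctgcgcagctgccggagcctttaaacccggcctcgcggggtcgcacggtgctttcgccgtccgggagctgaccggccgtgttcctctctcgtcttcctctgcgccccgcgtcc
Mrpl20, chr4:155802628-155802927, plus strand: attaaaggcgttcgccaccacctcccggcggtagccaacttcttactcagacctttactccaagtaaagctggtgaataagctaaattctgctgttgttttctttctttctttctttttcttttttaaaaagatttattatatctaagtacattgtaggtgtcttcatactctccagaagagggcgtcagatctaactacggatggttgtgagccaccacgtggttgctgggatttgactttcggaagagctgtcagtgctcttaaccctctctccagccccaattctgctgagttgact
Mrps11, chr7:78782881-78783180, plus strand: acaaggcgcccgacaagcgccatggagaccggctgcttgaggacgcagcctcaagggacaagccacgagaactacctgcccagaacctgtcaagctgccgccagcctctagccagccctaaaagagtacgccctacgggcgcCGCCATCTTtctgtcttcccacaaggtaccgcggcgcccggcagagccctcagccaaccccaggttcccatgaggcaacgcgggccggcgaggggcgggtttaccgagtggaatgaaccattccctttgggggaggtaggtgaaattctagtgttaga
Mrpl46, chr7:78783040-78783339, minus strand: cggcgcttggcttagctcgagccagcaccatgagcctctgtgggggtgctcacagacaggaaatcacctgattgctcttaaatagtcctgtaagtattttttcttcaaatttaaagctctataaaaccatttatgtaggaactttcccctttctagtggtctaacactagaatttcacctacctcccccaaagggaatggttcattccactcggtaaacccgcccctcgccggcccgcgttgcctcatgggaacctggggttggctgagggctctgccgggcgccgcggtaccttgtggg

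The Mrps9 window holds an NRF1 match, the Mrps22 window an ETS match close to the start and the Mrps11 window a YY1 match, and none of the 4 motifs lies in the other 4 windows. RefSeq windows were found for 68 of the 77 members (74 windows, since some genes have several starts). Among them 33.8% held the ETS letters, against 8.86% of all 32851 promoter windows and 16.03% of the 13850 windows of genes tested in either treatment comparison. The NRF1 letters stood in 17.6% of member windows, against 4.60% of all windows and 9.08% of those of tested genes. For YY1 the shares were 10.8%, 1.40% and 2.69%. The HNF4 letters were found in 0 of the 74 member windows, and they were rare everywhere (0.475% of all windows and 0.505% of those of tested genes). By subunit, the ETS letters stood in 30.6% of 49 large subunit windows and 41.7% of 24 small subunit windows. A match of letters is a description of the sequence and says nothing on its own of binding. No test was made of these shares.

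The genes are spread over 17 chromosomes. In the GENCODE M21 annotation (GRCm38), Mrps9 (ENSMUSG00000060679) spans 42851233 to 42905683 of chromosome 1, Mrpl23 (ENSMUSG00000037772) 142532686 to 142540747 of chromosome 7 and Mrps17 (ENSMUSG00000034211) 129715497 to 129722556 of chromosome 5, all on the plus strand. Mrps11 and Mrpl46 lie head to head on chromosome 7 and their annotated genes overlap by 413 bases. Exons of 32 of the 77 members overlap those of another gene, on the same strand for 8 (Mrpl3, Mrpl33, Mrpl51, Mrpl53, Mrps18c, Mrps24, Mrps34 and Mrps6) and on the opposite strand for 27. The strand setting of the counting is not given in the sources used here, so the levels of those members are uncertain. Named pseudogenes exist for Mrpl23 (1), Mrpl48 (1) and Mrps36 (3), so their counts are uncertain where reads fit both.

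Levels were compared between genes per length, as mean CPM over the 16 libraries per kilobase of the principal transcript. On that scale the large subunit genes ran from 1.71 to 135 with a median of 38.6, and the small subunit genes from 5.18 to 73.8 with a median of 31.0. The highest large subunit genes were Mrpl52 at 135, Mrpl12 at 117, Mrpl42 at 95.3 and Mrpl34 at 70.5 CPM per kilobase. Mrpl12 encodes the protein of the flexible stalk that recruits translation factors. In the small subunit, Mrps21 at 73.8, Mrps34 at 63.6, Mrps15 at 50.6 and Mrps18c at 44.3 led. The 3 homologs of the same bacterial protein were at 43.3 (Mrps18a, of the large subunit), 43.9 (Mrps18b) and 44.3 (Mrps18c) on this scale, but at 10.4, 22.7 and 26.2 CPM per kilobase with the union of all exons as the length, so their closeness rests on the length used. Mrps12, of the decoding centre, was at 32.1, Mrps36 at 25.9 and Mrpl53 the lowest member at 1.71 CPM per kilobase. With the union of all exons as the length, 2 of the 4 leading large subunit genes and 1 of the 4 leading small subunit genes kept their place.

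**Figure D1:**
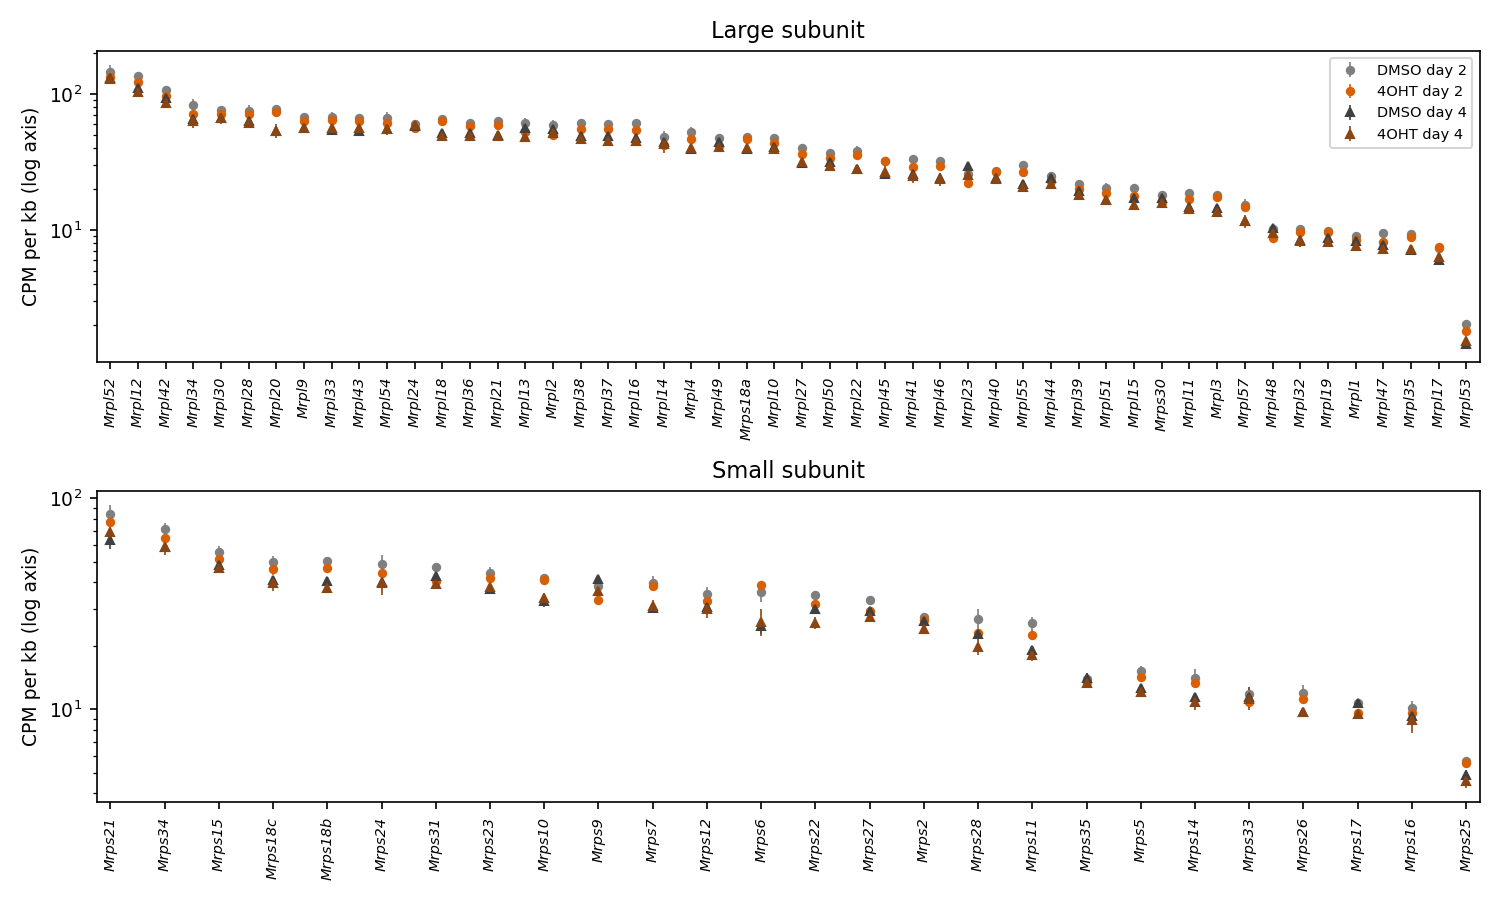
Level of every member in CPM per kilobase of principal transcript (log axis), for the large and the small subunit (Mrps36 not shown), ordered by the mean over all libraries, with 1 point for each of the 4 groups (mean; whiskers, SD, n = 4). Differences between genes, from 1.71 for Mrpl53 to 135 for Mrpl52 as means over 16 libraries, are far wider than those between groups.

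Summed over their genes, both subunits were highest in the DMSO libraries at day 2 and lowest in the 4OHT libraries at day 4. The large subunit sum was 3179, 2951, 2781 and 2803 CPM in DMSO at day 2 and 2583, 2777, 2704 and 2710 CPM in 4OHT at day 2. These groups did not overlap, though the highest 4OHT library was close to the lowest DMSO library. At day 4 the sum was 2410, 2358, 2510 and 2561 CPM in DMSO and 2226, 2285, 2453 and 2513 CPM in 4OHT, and those groups overlapped, although 4OHT was lower in each of the 4 pairs of the same number. The small subunit sum was 1314, 1231, 1151 and 1174 CPM against 1082, 1170, 1134 and 1138 CPM at day 2. It was 1033, 1017, 1066 and 1084 CPM against 949, 984, 1034 and 1047 CPM at day 4, again lower in 4OHT in all 4 pairs of the same number. The small subunit groups of the same day overlapped on both days, while day 2 and day 4 did not overlap for either subunit in either treatment.

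The mean sum over all members was 4167 ± 258 CPM (SD, n = 4) in DMSO and 3843 ± 118 CPM in 4OHT at day 2, a value 7.78% lower. At day 4 the means were 3526 ± 124 CPM and 3389 ± 183 CPM, 3.87% lower. From day 2 to day 4 the sum was 15.4% lower in DMSO and 11.8% lower in 4OHT. DMSO replicate 1 at day 2 stood highest, with all 77 members above their own mean over the 16 libraries, as in DMSO replicate 2. In 4OHT replicate 2 at day 4, 0 of the 77 were above theirs. Replicates 1 and 2 of day 4 had lower sums than replicates 3 and 4 under both treatments. The summed level of the 13 proteins encoded by mitochondrial DNA was 28539, 28436, 21400 and 14774 CPM in the DMSO replicates at day 4 and 28118, 26322, 23406 and 14236 CPM in the 4OHT replicates, so it too separated replicates 1 and 2 from 3 and 4, in the opposite direction. Nearly all of that sum came from mt-Co1, mt-Nd1, mt-Cytb, mt-Nd5, mt-Nd2 and mt-Nd4, and the highest of the rest, mt-Nd6, averaged 19.6 CPM. The part of this sum in the day 4 results was not tested.

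**Figure D2:**
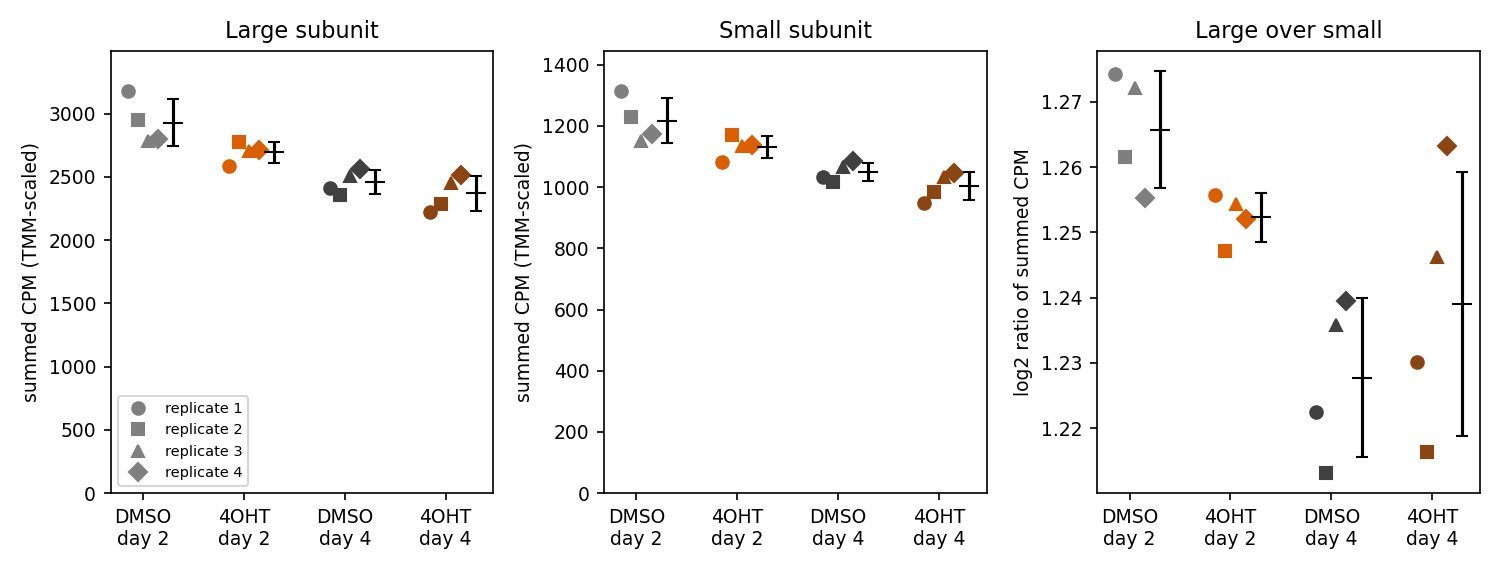
Summed level of the large and the small subunit genes (CPM) and the log2 ratio of the large to the small sum, for each of the 16 libraries (marker shape, replicate number; bar, mean; whiskers, SD, n = 4). Within each treatment the day 4 libraries lie under the day 2 libraries in both sums, while the ratio, on an axis that does not start at 0, stays between 1.21 and 1.27.

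The balance between the subunits moved by 0.04 or less on the log2 scale. The log2 ratio of the large to the small sum was 1.27 ± 0.01 in DMSO and 1.25 ± 0.00 in 4OHT at day 2 (mean ± SD, n = 4), and 1.23 ± 0.01 and 1.24 ± 0.02 at day 4. Of the pairs of groups compared, only DMSO at day 2 and DMSO at day 4 did not overlap, and they differed by -0.04. At day 4 the ratio was higher in 4OHT in each of the 4 pairs of the same number, by 0.01 on average. With Mrps30 and Mrps18a placed by symbol in the small subunit and Mrps36 with them, the ratios were 1.07, 1.06, 1.03 and 1.04 in the same order. By symbol the day 2 groups did not overlap either, at 1.068 to 1.080 in DMSO and 1.059 to 1.066 in 4OHT. Whether the treatment groups overlapped at day 2 thus depended on the assignment. Medians of the members' fold changes likewise differed little between subunits, as given with each comparison.

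The first comparison asks what treatment with 4OHT changed at day 2. Of the 77 members, 20 fell and 0 rose (edgeR adjusted p under 0.05), which is 26.0% of them. Over all 15897 genes tested, 14.3% fell and 16.9% rose by the same rule, so the share of members that fell was above the background and the share that rose was under it. The count was 14 of 50 in the large subunit and 6 of 26 in the small subunit. At an unadjusted p under 0.05, 35 were lower and 0 higher, where 3195 of the 15897 genes were lower and 3404 higher. DESeq2 called 27 lower and 0 higher, where it called 15.5% of all genes lower and 17.1% higher. The split of all calls leans on the scaling: edgeR with TMM called 2681 genes higher and 2269 lower, and with upper-quartile scaling 2292 higher and 2899 lower, with 33 members lower. The log2 fold change was below 0 for 75 of the 77, with a median of -0.10 (-0.11 in the large and -0.10 in the small subunit, -0.00 over all genes tested), and it ran from -0.23 to 0.13. The changes were thus small, and most of the members did not pass the test. Without overlap between the groups, 25 members were lower and 0 higher, where 14.8% of all genes were lower and 17.0% higher.

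The largest fall at day 2 was that of Mrpl2, a homolog of a bacterial protein next to the peptidyl transferase centre. Its level was 67.3, 61.5, 56.1 and 58.7 CPM in DMSO and 52.0, 51.6, 52.3 and 51.0 CPM in 4OHT, with all 4OHT libraries under all DMSO libraries and close to one another (-0.23 ± 0.05 on the log2 scale, SE, n = 4; edgeR adjusted p = 0.00493). Mrpl13, another large subunit protein with a bacterial homolog, was at 83.2, 72.5, 69.8 and 74.0 CPM in DMSO and at 58.8, 65.3, 65.4 and 64.9 CPM in 4OHT (-0.23 ± 0.06; edgeR adjusted p = 0.00920). Here too the groups stood apart, with 4OHT replicate 1 lowest. Mrpl23, whose bacterial homolog lines the exit of the peptide tunnel, was at 19.8, 17.9, 16.8 and 17.2 CPM against 15.2, 14.8, 15.5 and 15.7 CPM (-0.22 ± 0.05; edgeR adjusted p = 0.00971). Mrpl48, of the central protuberance, was at 48.1, 44.8, 40.6 and 40.4 CPM against 37.1, 37.2, 37.1 and 37.5 CPM (-0.22 ± 0.05; edgeR adjusted p = 0.00856). Every 4OHT library was lower than every DMSO library for both genes. The largest fall in the small subunit was that of Mrps28, at 24.3, 21.4, 18.3 and 20.2 CPM against 17.6, 18.2, 18.1 and 18.2 CPM (-0.21 ± 0.07; edgeR adjusted p = 0.0360). Its call was lost, at adjusted p of 0.0590 to 0.0882, when DMSO replicate 1 or 2 or any single 4OHT replicate was left out. Mrps6 was the member most to the other side, at 34.7, 30.4, 28.7 and 27.6 CPM in DMSO and 31.2, 32.5, 33.8 and 34.3 CPM in 4OHT (0.13 ± 0.06; edgeR adjusted p = 0.148), with groups that overlapped. It was the only member called higher, and only in the fit without DMSO replicate 1.

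Among the most abundant members per length, Mrpl34 fell at day 2, from 57.1, 50.3, 47.8 and 46.4 CPM in DMSO to 43.1, 46.3, 41.8 and 42.3 CPM in 4OHT (-0.21 ± 0.06; edgeR adjusted p = 0.0218), with groups that stood narrowly apart. Mrpl42 and Mrps30 also fell, with edgeR adjusted p of 0.0388 and 0.0168. Mrpl12 had the largest counts of the family, with means of 177 ± 13.5 and 159 ± 6.26 CPM (SD, n = 4) that did not overlap, yet it did not pass (edgeR adjusted p = 0.0590). Mrps18a, Mrps18b, Mrps18c, Mrps12, Mrps21, Mrps34, Mrps15, Mrpl52 and Mrps36 did not pass the test at day 2, with log2 fold changes of -0.14 to -0.05. The enterocyte list was at 4619 ± 673 CPM in DMSO and 3362 ± 583 CPM in 4OHT at day 2, with 4 of its 5 genes fallen, and its part in the members' values was not tested. The proliferation list was at 1710 ± 86.5 and 1628 ± 72.1 CPM, with 3 of 10 genes fallen, and its part was not tested either. The epithelium list was at 9362 ± 388 CPM in DMSO and 10611 ± 350 CPM in 4OHT, without overlap, with Krt8 risen and Epcam fallen among its 6 genes, and its part was not tested.

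Leaving out 1 library moved the day 2 count between 11 and 29. It was 13 without 4OHT replicate 1, 12 without 4OHT replicate 3 and 11 without DMSO replicate 2. In the same order, 2003 of 16105, 1690 of 16116 and 1660 of 16019 genes fell over all genes tested.

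At day 4 the same comparison gave 8 members lower and 0 higher in 4OHT, 10.4% of the 77, where 11.1% of the 16040 genes tested fell and 13.7% rose (edgeR adjusted p under 0.05). The share that fell was therefore close to the background, while 0 rose. The calls were 4 of 50 in the large and 4 of 26 in the small subunit (15 and 9 with the replicate block described next), and the median log2 fold change was -0.05 in the large and -0.07 in the small subunit against -0.01 over all genes. Of the 77 values 58 were below 0, and they ran from -0.22 to 0.11. At an unadjusted p under 0.05, 16 were lower and 0 higher, where 2849 of the 16040 genes were lower and 3111 higher. The share of members lower was again near the background. DESeq2 called 11 lower and 0 higher, where it called 13.2% of all genes lower and 15.4% higher. At day 4 libraries of the same replicate number deviated together in both treatments, and with the number as a block 24 members fell and 1, Mrps21, rose. In that fit 22.2% of all genes fell and 22.8% rose, so the members' share of 31.2% was above the background for falls. Without overlap between the groups, 11 members were lower and 0 higher, against 13.6% and 14.7% of all genes.

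Mrps9 had the smallest adjusted p at day 4. It encodes a small subunit protein whose bacterial homolog reaches the peptidyl site. It was at 58.1, 57.6, 59.4 and 60.1 CPM in DMSO and 50.04, 51.7, 52.5 and 51.6 CPM in 4OHT, with clear space between the groups (-0.19 ± 0.04 on the log2 scale, SE, n = 4; edgeR adjusted p = 0.00585). Day 2 showed the same order, at 57.2, 54.5, 52.4 and 54.0 CPM against 46.2, 47.3, 47.3 and 47.2 CPM (-0.21 ± 0.04; edgeR adjusted p = 0.00173). Mrps17, whose bacterial homolog binds the small ribosomal RNA early in assembly, was at 54.0, 52.8, 55.2 and 54.5 CPM against 46.5, 48.4, 48.5 and 48.6 CPM at day 4 (-0.17 ± 0.04; edgeR adjusted p = 0.0102). At day 2 it was at 58.2, 54.1, 52.5 and 53.4 CPM against 47.4, 48.5, 49.5 and 49.4 CPM (-0.16 ± 0.04; edgeR adjusted p = 0.0126), again without overlap. Mrpl23 was at 20.8, 18.9, 20.9 and 20.9 CPM against 17.0, 16.4, 17.9 and 18.5 CPM at day 4 (-0.22 ± 0.06; edgeR adjusted p = 0.0187). The DMSO groups of Mrpl23 lay above the 4OHT groups on both days.

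Mrpl13 at day 4 was at 67.5, 64.0, 71.0 and 72.8 CPM in DMSO and 54.5, 55.5, 61.3 and 65.3 CPM in 4OHT (-0.22 ± 0.07; edgeR adjusted p = 0.0392). These groups overlapped, although 4OHT was lower in each of the 4 pairs of the same number, and with the number as a block the edgeR adjusted p was 0.000332. Mrps22, a protein that bacterial ribosomes lack, was at 36.0, 34.5, 37.2 and 34.9 CPM in DMSO and 29.4, 28.9, 33.0 and 32.3 CPM in 4OHT (-0.20 ± 0.06; edgeR adjusted p = 0.0235). Its groups stood apart at day 4 and overlapped at day 2. The other calls at day 4 were Mrpl44, Mrpl49 and Mrps2, with log2 fold changes of -0.15, -0.13 and -0.12. Mrps21, the call in the other direction with the block, was at 28.7, 28.4, 33.2 and 34.4 CPM in DMSO and 31.0, 29.7, 36.6 and 37.5 CPM in 4OHT (0.11 ± 0.09; edgeR adjusted p = 0.412, and 0.0211 with the block). It was higher in 4OHT in each pair of the same number while the groups overlapped.

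Of the 20 members that fell at day 2 and the 8 that fell at day 4, 5 were in both (Mrpl13, Mrpl23, Mrpl49, Mrps17 and Mrps9), 25.0% of the first list and 62.5% of the second. With the block at day 4, 14 were shared, 70.0% of the 20 and 58.3% of the 24. No library enters both comparisons. Leaving out 1 library at day 4 gave 2 to 7 calls. The count was 2 without DMSO replicate 1, 2 without DMSO replicate 3, 3 without DMSO replicate 4, and 3, 4 and 5 without 4OHT replicates 1, 2 and 3. Over all genes, 1319 of 16182, 1253 of 16264 and 1384 of 16284 fell without DMSO replicates 1, 3 and 4. Without 4OHT replicates 1, 2 and 3, 1564 of 16179, 1737 of 16211 and 1366 of 16228 fell. In each of these fits the members' share was under that of all genes. The median log2 fold change over the members was -0.02 without 4OHT replicate 1, -0.03 without 4OHT replicate 2 or DMSO replicate 4, and -0.08 without 4OHT replicate 3 or 4. Mrps9 and Mrps17 were called in every fit that left out 1 library. Mrpl23 lost its call without DMSO replicate 1, 3 or 4 (adjusted p of 0.0545 to 0.0548), Mrps22 without DMSO replicate 1 or 3 or 4OHT replicate 1 or 2 (0.0526 to 0.0655), and Mrpl13 without DMSO replicate 1, 3 or 4 or 4OHT replicate 1, 2 or 3 (0.0537 to 0.104). The proliferation list was at 1961 ± 101 CPM in DMSO and 1595 ± 144 CPM in 4OHT at day 4, without overlap and with 9 of its 10 genes fallen. The enterocyte list was at 5907 ± 177 and 6262 ± 849 CPM, with 1 of 5 genes risen, Alpi. The epithelium list was at 5813 ± 200 CPM in DMSO and 6984 ± 422 CPM in 4OHT, without overlap and with Krt8 and Krt20 risen. The part of these lists in the members' values was not tested.

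**Figure D3:**
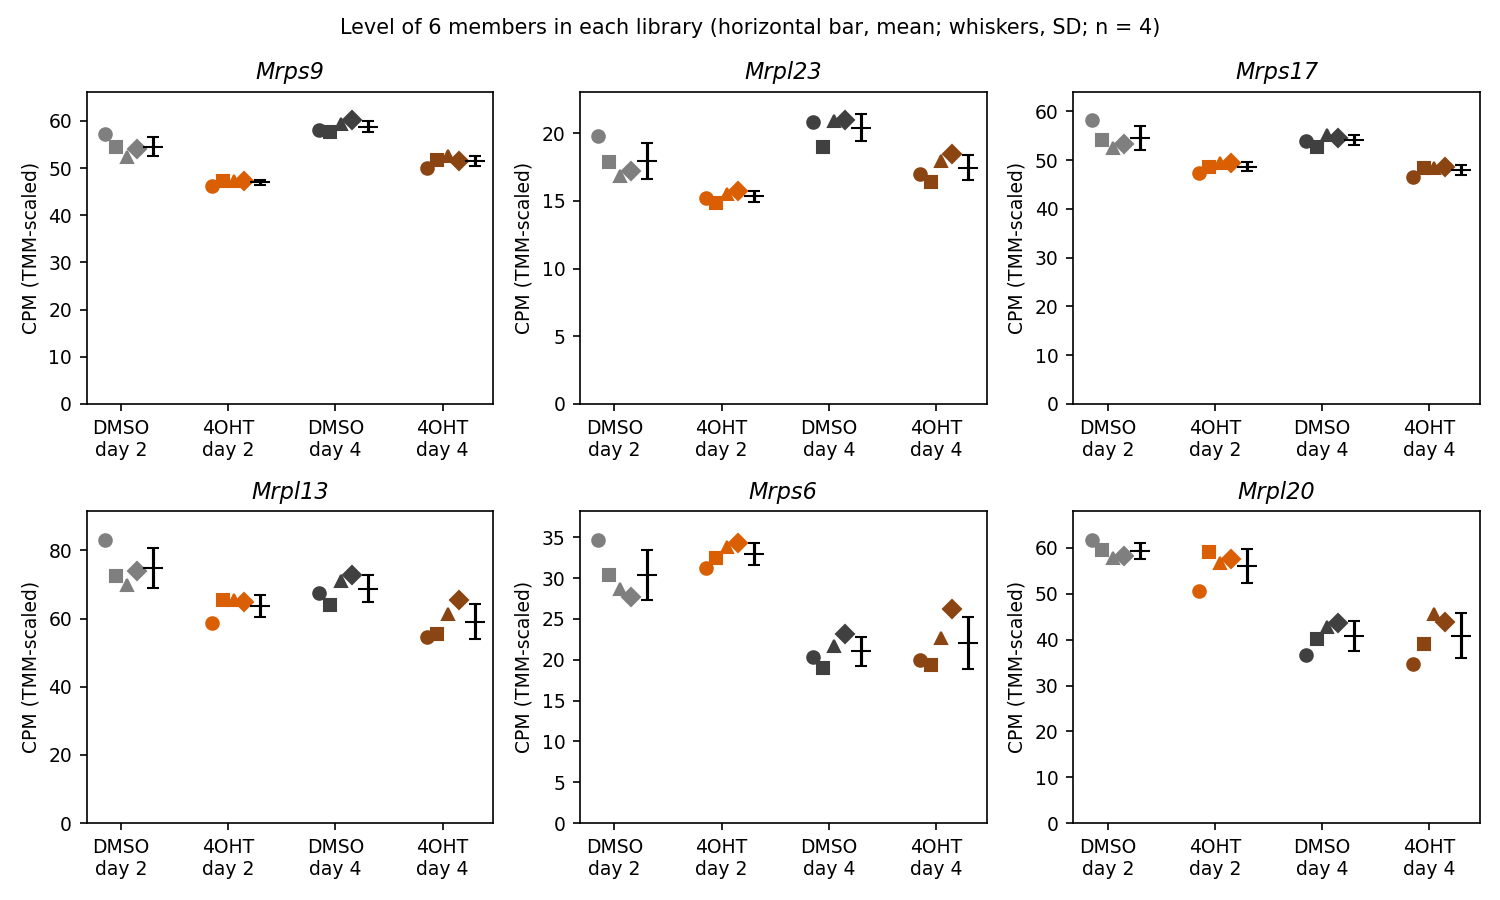
Level (CPM, axes from 0) of Mrps9, Mrpl23, Mrps17, Mrpl13, Mrps6 and Mrpl20 in each of the 16 libraries by group (marker shape, replicate number; bar, mean; whiskers, SD, n = 4). Mrps9, Mrpl23 and Mrps17 lie lower in 4OHT than in DMSO on both days, whereas Mrps6 and Mrpl20 differ between the days.

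The comparisons of time set the day 4 libraries against the day 2 libraries under each treatment, and there the family moved most. Whether the same cultures or processing runs gave both days is not stated in the sources used here. A difference between runs therefore cannot be told apart from time. In DMSO 59 of the 77 members fell and 2 rose (edgeR adjusted p under 0.05), so that 76.6% fell where 24.8% of the 16088 genes tested fell and 28.7% rose. In 4OHT 50 fell and 3 rose, so that 64.9% fell where 23.5% of the 15962 genes tested fell and 25.9% rose. In both treatments the share of members that fell was far above the background and the share that rose far under it. The falls took in 38 of 50 large and 20 of 26 small subunit genes in DMSO, and 35 and 15 in 4OHT, with Mrps36 the further call in DMSO. The median log2 fold change was -0.26 in DMSO (-0.27 large, -0.23 small, 0.03 over all genes) and -0.19 in 4OHT (-0.19 large, -0.16 small, 0.01 over all genes). Values ran from -0.53 to 0.20 in DMSO and from -0.57 to 0.19 in 4OHT. Without overlap between the days, 59 members were lower and 1 higher in DMSO, against 24.2% and 24.4% of all genes. In 4OHT 44 were lower and 3 higher, against 23.1% and 22.9%. Of the members that fell, 49 did so under both treatments, 83.1% of the 59 and 98.0% of the 50, with no library in both comparisons. Each time comparison shares libraries with both treatment comparisons, so results for time and for treatment are not independent.

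Mrpl20, whose bacterial homolog binds the large ribosomal RNA early in assembly, fell most in DMSO. It was at 61.8, 59.6, 57.8 and 58.2 CPM at day 2 and 36.6, 40.2, 42.7 and 43.7 CPM at day 4 (-0.53 ± 0.06 on the log2 scale, SE, n = 4; edgeR adjusted p = 1.01e-05). In 4OHT it was at 50.6, 59.2, 56.7 and 57.6 CPM and then 34.8, 39.1, 45.7 and 43.9 CPM (-0.45 ± 0.08; edgeR adjusted p = 0.00120). The days did not overlap under either treatment. Mrps6, of the small subunit platform, was at 34.7, 30.4, 28.7 and 27.6 CPM and then 20.3, 19.0, 21.7 and 23.2 CPM in DMSO (-0.52 ± 0.08; edgeR adjusted p = 0.000122). Its values in 4OHT were 31.2, 32.5, 33.8 and 34.3 CPM and then 19.9, 19.3, 22.7 and 26.3 CPM (-0.57 ± 0.09; edgeR adjusted p = 0.000315). Exons of Mrps6 share the strand and some bases with Slc5a3 and Gm49711, so part of this signal may belong to them. Mrpl53, near 1 CPM, fell in DMSO from 1.51, 1.41, 1.38 and 1.40 CPM to 1.11, 1.02, 0.973 and 0.948 CPM (-0.47 ± 0.12; edgeR adjusted p = 0.00443). In 4OHT it did not pass (-0.23 ± 0.13; edgeR adjusted p = 0.158). Mrpl18, of the central protuberance, fell under both treatments, by 0.33 and 0.35 on the log2 scale, and its levels in 4OHT were 71.4, 80.2, 77.0 and 78.1 CPM and then 54.1, 58.0, 63.1 and 63.7 CPM, without overlap.

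The head-to-head pair, chosen after its values were seen, fell with time, as did 59 of the 77 members in DMSO and 50 in 4OHT. Mrpl46 was at 38.2, 37.6, 34.7 and 35.5 CPM at day 2 and 26.9, 26.2, 27.3 and 28.0 CPM at day 4 in DMSO (-0.42 ± 0.05; edgeR adjusted p = 2.30e-05). Mrps11 was at 29.6, 27.8, 25.0 and 25.8 CPM and then 19.9, 21.1, 20.4 and 19.3 CPM (-0.41 ± 0.06; edgeR adjusted p = 0.000114). In 4OHT the pair changed by -0.30 ± 0.07 and -0.31 ± 0.06, with edgeR adjusted p of 0.00477 and 0.00190. Their exons overlap on opposite strands, so without a stated strand setting their counts cannot be taken as separate.

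The members that rose were few. Mrpl23 rose from 19.8, 17.9, 16.8 and 17.2 CPM to 20.8, 18.9, 20.9 and 20.9 CPM in DMSO (0.20 ± 0.06; edgeR adjusted p = 0.0181), with groups that overlapped. It rose from 15.2, 14.8, 15.5 and 15.7 CPM to 17.0, 16.4, 17.9 and 18.5 CPM in 4OHT (0.19 ± 0.05; edgeR adjusted p = 0.0121), without overlap. Mrps9 rose by 0.12 ± 0.05 in DMSO (edgeR adjusted p = 0.0403) and by 0.14 ± 0.04 in 4OHT (edgeR adjusted p = 0.0130), and its days did not overlap in either. Mrpl48 rose by 0.14 ± 0.05 in 4OHT (edgeR adjusted p = 0.0280), without overlap, and in DMSO its change was 0.04 ± 0.06 (edgeR adjusted p = 0.585). In 4OHT the calls of Mrpl23 and Mrps9 held in every fit that left out 1 library. The other calls lean on single libraries. In DMSO Mrpl23 lost its call without replicate 3 or 4 of day 2 or replicate 4 of day 4 (adjusted p of 0.0647 to 0.0820). Mrps9 lost its call in DMSO without replicate 2, 3 or 4 of day 2 or any replicate of day 4 (0.0660 to 0.166), and with DESeq2 or the replicate block. Mrpl48 lost its call without any replicate of day 2 or replicate 3 or 4 of day 4 (0.0569 to 0.102).

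The other members named by rule mostly fell with time. In DMSO, Mrpl12 went from 177 ± 13.5 to 145 ± 6.66 CPM (-0.27 ± 0.06; edgeR adjusted p = 0.00162), and Mrps21 from 41.1 ± 4.46 to 31.2 ± 3.10 CPM (-0.39 ± 0.08; edgeR adjusted p = 0.00168). Mrps18a, Mrps18b and Mrps18c fell by 0.29, 0.30 and 0.27 on the log2 scale in DMSO and by 0.22, 0.31 and 0.22 in 4OHT, so the large subunit homolog and its small subunit relatives gave like values. Mrps30 did not pass in either treatment, at -0.06 and -0.01. Mrps36 changed by -0.39 ± 0.08 in DMSO (edgeR adjusted p = 0.00140) and by -0.22 ± 0.09 in 4OHT (edgeR adjusted p = 0.0546). Mrpl52, the most abundant per length, did not pass in DMSO or 4OHT, at -0.12 and -0.05. Over the same days the enterocyte list went from 4619 to 5907 CPM in DMSO and from 3362 to 6262 CPM in 4OHT, without overlap in either and with 4 of its 5 genes risen. The other one, Alpi, the brush border alkaline phosphatase, fell from 305 to 123 CPM in DMSO and from 356 to 236 CPM in 4OHT. The epithelium list went from 9362 to 5813 CPM in DMSO and from 10611 to 6984 CPM in 4OHT, without overlap, with 4 of 6 genes fallen in each, and 1, Epcam, risen in 4OHT. The proliferation list went from 1710 to 1961 CPM in DMSO, without overlap, and from 1628 to 1595 CPM in 4OHT, with overlap. Their part in the members' values was not tested.

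**Figure D4:**
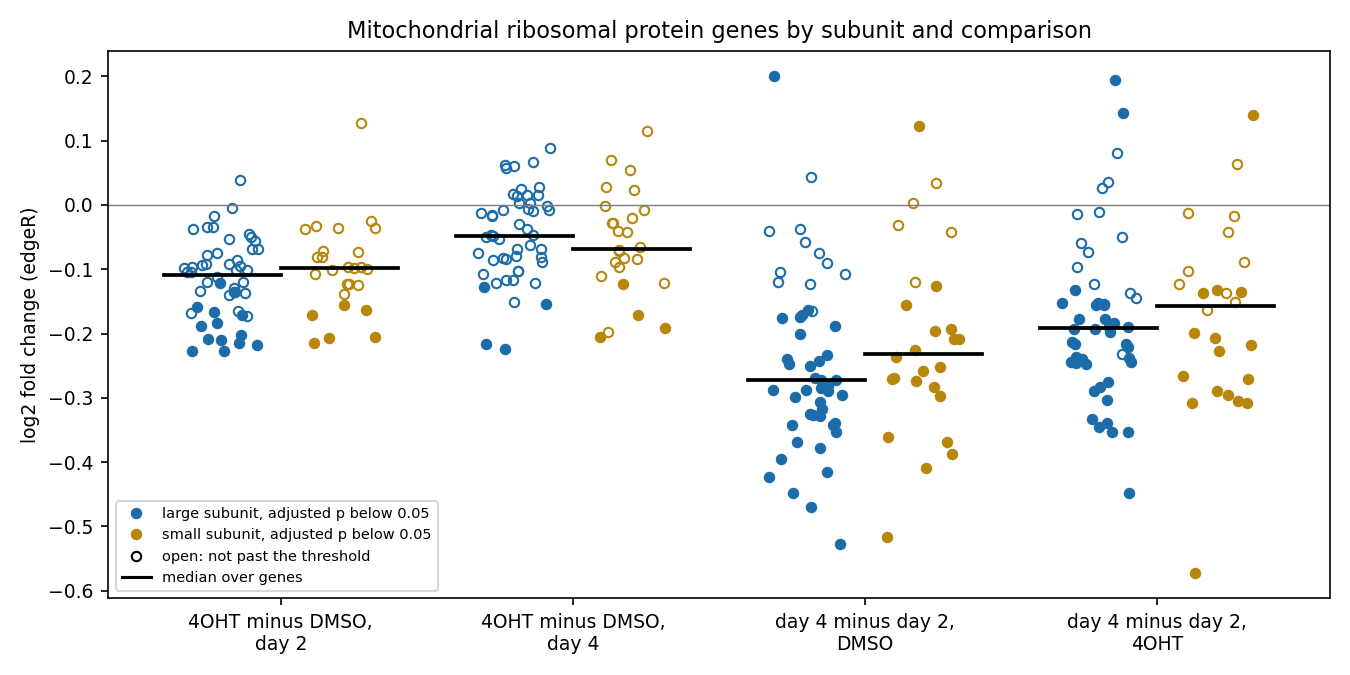
Log2 fold change (edgeR) of each member but Mrps36 in the 4 comparisons, by subunit (each point is 1 gene, filled where the adjusted p is under 0.05; black bars, medians). Most points lie below 0 in all comparisons, with medians near -0.10 and -0.05 for treatment at day 2 and day 4 and near -0.26 and -0.19 for time in DMSO and 4OHT.

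The day by treatment interaction asks whether the treatment effect differed between the days. It was called for 0 of the 77 members in either direction, where 0.476% of 16597 genes were lower and 1.20% higher. At an unadjusted p under 0.05, 0 members were lower and 1 was higher, Mrpl4, where 1152 of the 16597 genes were lower and 1747 higher. DESeq2 also called 0 at an adjusted p, where it called 1.49% of all genes lower and 3.62% higher. It had 1 member higher at an unadjusted p, where 1751 genes were higher. The replicate block gave 0 as well, against 1.59% and 3.77% of all genes. The median interaction was 0.07 on the log2 scale (0.01 over all genes), with 63 of 77 values above 0. It was 0.03 without DMSO replicate 1 of day 2, 0.04 without 4OHT replicate 4 of day 4 and 0.10 without 4OHT replicate 1 of day 4. The smaller number of calls at day 4 than at day 2 in the fits without the block is thus not shown to be a different effect, gene by gene. With the block the order was reversed, with 24 members lower at day 4 and 17 at day 2.

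The genes that work with the mitochondrial ribosome were described from lists of known function. At day 2, 11 of the 24 tested genes of assembly and ribosomal RNA modification fell and 0 rose (45.8% lower, against 14.3% of all genes), with a median of -0.10. Nsun4, a methyltransferase of the small ribosomal RNA that also serves assembly, fell by 0.28 ± 0.05 on the log2 scale (edgeR adjusted p = 0.000788). Tfb1m, which dimethylates the small ribosomal RNA, fell by 0.30 ± 0.07 at day 2 and by 0.25 ± 0.07 at day 4 (edgeR adjusted p = 0.00742 and 0.0302). At day 4, 5 of the 24 fell and 0 rose (20.8%, against 11.1% of all genes), and with the block 11 and 0 (45.8%, against 22.2%). The largest of these falls was that of Gtpbp10, a GTPase of large subunit assembly, at -0.41 ± 0.05 (edgeR adjusted p = 0.000353), after -0.27 ± 0.05 at day 2 (edgeR adjusted p = 0.00221). Fastkd2, Noa1 and Mrm1, also assembly or RNA modification factors, fell on both days. From day 2 to day 4 this list was mixed, with 6 higher and 5 lower in DMSO, shares near those of all genes, and 4 higher and 8 lower in 4OHT (16.7% and 33.3%, against 25.9% and 23.5%).

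Of the 16 tested translation factors 3 fell at day 2 and 2 at day 4 (18.8% and 12.5%, near the 14.3% and 11.1% of all genes), with 0 rises, Tsfm and Taco1 on both days. With the block 6 fell at day 4 (37.5%, against 22.2%). With time 7 fell and 2 rose in DMSO (43.8% lower, against 24.8%), and 6 fell and 1 rose in 4OHT (37.5%, against 23.5%). The elongation factors Gfm1 and Tufm fell by 0.33 ± 0.05 and 0.32 ± 0.06 on the log2 scale in DMSO and by 0.41 ± 0.04 and 0.26 ± 0.05 in 4OHT (edgeR adjusted p of 3.29e-05 to 0.000836). Among the 20 aminoacyl-tRNA synthetase and amidotransferase genes of the organelle, 6 fell and 1 rose at day 2 (30.0% lower), and 4 fell and 0 rose at day 4 (12 and 0 with the block, 60.0% lower, against 22.2% of all genes), including Ears2 and Tars2 on both days. Of the 7 genes of mitochondrial transcription, 2 fell at day 2 and 1 at day 4 (2 with the block), where 14.3%, 11.1% and 22.2% of all genes fell. With time 1 rose and 1 fell in DMSO, and 2 rose and 1 fell in 4OHT. Tfam, which packages mitochondrial DNA and starts its transcription, fell by 0.24 ± 0.04 at day 2 and by 0.20 ± 0.04 at day 4 (edgeR adjusted p = 0.00145 and 0.00419) and rose with time by 0.21 ± 0.05 in DMSO and 0.25 ± 0.04 in 4OHT. Polrmt, of the same list, went from 55.8 to 45.2 CPM in DMSO and from 49.3 to 42.4 CPM in 4OHT. Of the 6 tested subunits listed under other symbols, Dap3 fell at day 2 and Ptcd3 at day 4, where 14.3% and 11.1% of all genes fell. With the block 3 fell and 1 rose at day 4, where 22.2% of all genes fell and 22.8% rose. With time Aurkaip1 fell under both treatments, Ptcd3 fell in 4OHT, and Dap3 rose in 4OHT (0.16 ± 0.05; edgeR adjusted p = 0.0185). Ict1, the peptidyl-tRNA hydrolase also known as Mrpl58, fell with time in DMSO (-0.18 ± 0.07; edgeR adjusted p = 0.0490). Of 10 regulators, 4 rose and 1 fell with time in DMSO, where 28.7% of all genes rose and 24.8% fell. In 4OHT 1 rose and 2 fell, where 25.9% rose and 23.5% fell. The coactivator Ppargc1a rose with time by 1.16 ± 0.12 in DMSO and 1.24 ± 0.09 in 4OHT (edgeR adjusted p = 6.55e-06 and 2.49e-06). Gabpa and Myc were among 3 of the 10 that fell at day 4 with 4OHT, by 0.14 ± 0.04 and 0.27 ± 0.04, where 11.1% of all genes fell. With the block 6 of the 10 fell at day 4, where 22.2% of all genes fell.

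Other ribosome and respiratory chain genes gave different counts. Of 74 tested nuclear genes for respiratory chain and ATP synthase subunits, 48 fell and 0 rose with 4OHT at day 2. Over all genes 14.3% fell and 16.9% rose. The list's median was -0.19 against -0.10 for the mitochondrial ribosome. At day 4, 1 of 73 fell and 0 rose, where 11.1% of all genes fell and 13.7% rose. With the block at day 4, 12 fell and 0 rose (16.4% lower, against 22.2% of all genes). With time they fell in 39 of 73 cases in DMSO and 5 of 73 in 4OHT, where 24.8% and 23.5% of all genes fell. They rose in 4 and 8 cases, where 28.7% and 25.9% of all genes rose. Cytosolic ribosomal protein genes had 25 rises and 2 falls among 83 with time in DMSO (30.1% higher, near the 28.7% of all genes, and 2.41% lower, against 24.8%; median 0.16) and 48 rises and 1 fall in 4OHT (57.8% higher, against 25.9%; median 0.21), while the mitochondrial ribosome had 2 and 3 rises among 77. With 4OHT, 7 of those 83 fell at day 2 (8.43%, under the 14.3% of all genes) and 0 at day 4 (30 with the block, 36.1%, against 22.2%). Yet most of the 83 log2 fold changes with 4OHT were below 0, 82 at day 2 (median -0.14) and 78 at day 4 (median -0.10). For the mitochondrial ribosome the medians were -0.10 and -0.05. At day 2, 39 of the cytosolic genes were lower at an unadjusted p under 0.05, where 3195 of 15897 genes were. DESeq2 called 12 of them lower at day 2, where it called 15.5% of all genes lower. Of the 13 proteins encoded by mitochondrial DNA, 0 were called in either direction with 4OHT on either day (edgeR; also 0 at an unadjusted p under 0.05 and by DESeq2), but 1 fell at day 4 with the block. With time mt-Nd1 and mt-Nd3 fell in DMSO and mt-Atp8 in 4OHT, and poly(A) selection measures such transcripts only in part. Over the 16 libraries mt-Nd3 and mt-Atp8 averaged only 0.489 and 0.944 CPM, where mt-Nd1 averaged 3673 CPM. For the 0 rises named here and among the assembly and translation factors, the count of rises at an unadjusted p under 0.05 was also 0, except for 1 respiratory chain gene at day 2, and DESeq2 called 0. At that unadjusted p, 3404 of 15897 genes rose at day 2 and 3111 of 16040 at day 4. For the 0 falls of cytosolic genes at day 4 the count was 4 at an unadjusted p and 2 by DESeq2, where 2849 and 2115 of 16040 genes fell. These lists are set side by side as counts, and no test was made of the difference between lists.

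**Figure D5:**
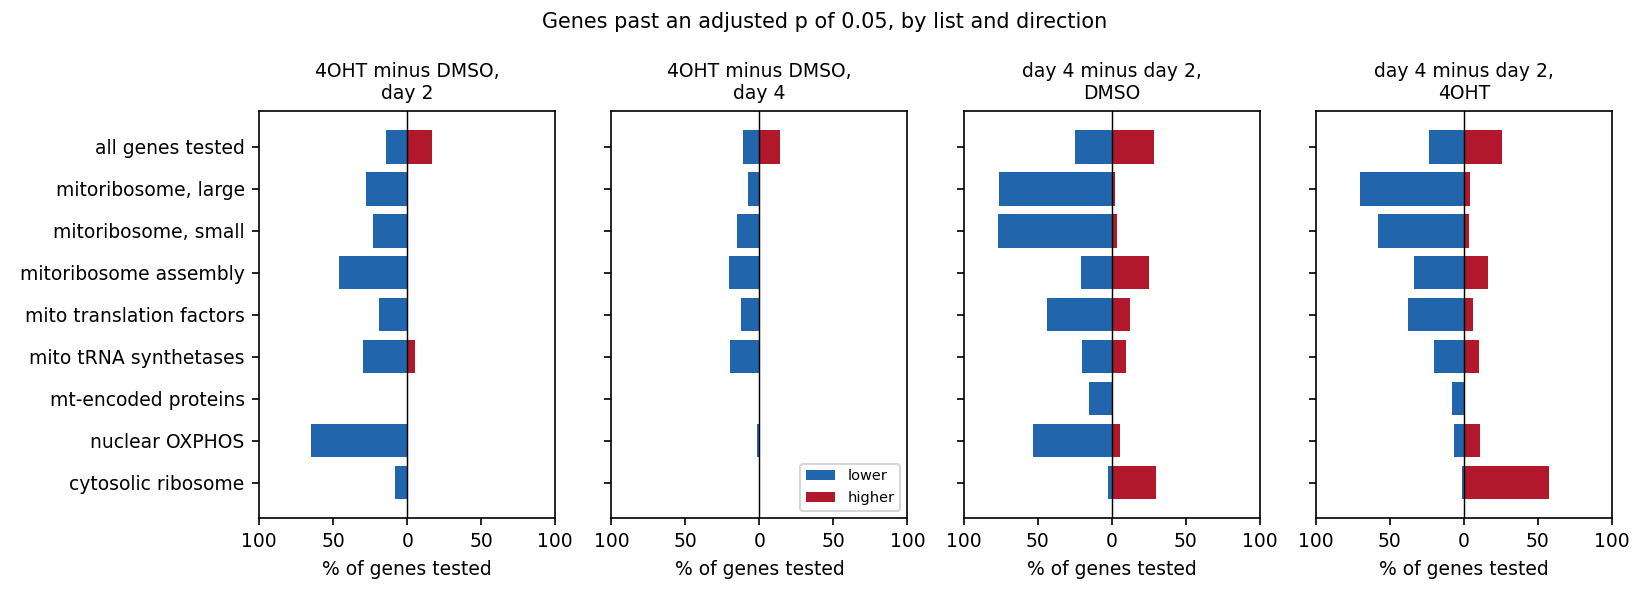
Percent of tested genes called lower (left) or higher (right) at an edgeR adjusted p under 0.05, by list, for the 4 comparisons. In the time comparisons most genes of both mitochondrial ribosome subunits are on the lower side. In DMSO these are 38 of 50 large and 20 of 26 small subunit genes, and in 4OHT 35 and 15. The cytosolic ribosome has 30.1% and 57.8% of its genes on the higher side.

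Length and level were weakly related to the members' changes. Across the 77 genes, which share libraries and are not independent, Spearman's rho between the log2 fold change and the length of the principal transcript was 0.22 at day 2, -0.28 at day 4, 0.25 for time in DMSO and 0.01 for time in 4OHT. Over all genes tested, with the union of exons as length, the values were 0.21, 0.00, 0.11 and -0.01. Against the level per kilobase the members' rho was -0.08, 0.16, -0.08 and 0.07 in the same order.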

How the data were processed

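Whole-number read counts per gene were deposited by the authors in 1 table per day, each with 8 libraries, and are raw counts per the file headers. Libraries were made from poly(A) RNA out of 250 ng of total RNA with a directional kit, as the labels' protocols say. STAR 2.4.0f1 on build GRCm38 and bcl2fastq 1.8.4 are named by the submitters' processing notes. Which tool counted reads, on what annotation and by which strand setting, was not given in the sources used here. Every listed gene has at least 10 reads over the 8 libraries of its table. Symbols that had turned into dates in the day 4 table (14 of them) were replaced through their gene ID.

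Groups follow the treatment and the time point given in the labels. The tests were robust quasi-likelihood fits in edgeR 4.0.16 under R 4.3.3 with limma 3.58.1, after filterByExpr and TMM scaling, with p-values adjusted over all genes tested by Benjamini and Hochberg's method and called under 0.05. All 77 members passed the filter in all 5 comparisons. Treatment was tested within each day and time within each treatment (8 libraries a fit), and the interaction over all 16. The standard error was taken as the log2 fold change over the root of F. The fits were checked on simulated counts. Counting precision is set by library totals between 63.8 M and 93.3 M, and reads carry no molecular identifiers. In all 24 pairs of libraries within a group the counts differed by more than counting noise (chi-square per degree of freedom of at least 7.99), so none is a copy of another.

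Replicate numbers stand in the titles. At day 4 the deviations of same-numbered libraries from their group means correlated at 0.63 to 0.81 across genes, and that blocked fit is printed beside its result. At day 2 the correlation was -0.11 to 0.47, for time in DMSO 0.07 to 0.19 and for time in 4OHT -0.23 to 0.39, so there the numbers are not taken as pairs.

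Members, lists and tests were chosen with earlier results of these data known. Named with values were the 5 largest falls and rises past the threshold for each treatment comparison, the 3 largest for each time comparison, the 4 highest per length in each subunit, and Mrps18a, Mrps18b, Mrps18c, Mrps30, Mrps36, Mrpl12, Mrps12 and Mrpl58. Alternatives were other scalings and filters, a stricter threshold, DESeq2 1.42.0, the replicate block, all 16 libraries fitted together, and the omission of each library in turn. Gene models are from GENCODE M21 and promoter sequences from RefSeq.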

Additional observations from a re-analysis of the deposited data

Results flagged for a closer look

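In 5 of the 116 groups of 4 libraries examined for the named members, 1 library stood far from the other 3, and chance alone gives about 1 such group in 20. Mrpl13 was at 58.8 CPM in 4OHT replicate 1 at day 2, where the others were at 64.9 to 65.4 CPM. Mrps9 was lowest in the same library, at 46.2 CPM against 47.2 to 47.3 CPM. Mrps17 was at 46.5 CPM in 4OHT replicate 1 at day 4, against 48.4 to 48.6 CPM. Mrpl23 was at 18.9 CPM in DMSO replicate 2 at day 4, against 20.8 to 20.9 CPM. Mrps36 was high in 4OHT replicate 2 at day 2, at 20.7 CPM against 18.4 to 18.8 CPM.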

How the results depend on the processing

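Directions held under every alternative run for the named members, with 174 comparisons of a gene and a setting on the same side of the threshold and 15 that lost the call, and 133 and 35 when 1 library was left out. The count of members that fell at day 2 (20) was 7 at an adjusted p under 0.01, 33 with upper-quartile scaling and 32 with library totals only, and 11 to 29 without 1 library, with 0 to 1 higher. Over all 15897 genes, 1175 fell at 0.01, 2899 with upper-quartile scaling and 2648 with library totals only. At day 4 (8) the members' count was 1 at 0.01, 13 with library totals only, 5 with no filter on low counts and 2 to 7 without 1 library, and the replicate block gave 24 lower and 1 higher. Over all genes, 893 of 16040 fell at 0.01, 2045 of 16040 with library totals only and 1665 of 20658 with no filter. For time in DMSO (59 lower, 2 higher) the higher count was 0 at 0.01 and 1 with DESeq2 size factors, no filter, the replicate block or DESeq2, and without 1 library 53 to 60 fell and 0 to 2 rose. Of all 16088 genes, 3421 rose at 0.01, 4335 with DESeq2 size factors, 4669 with the block and 4325 with DESeq2, and of 19964 with no filter 4430 rose. For time in 4OHT (50 lower, 3 higher) 32 fell and 0 rose at 0.01, 32 fell with upper-quartile scaling, and without 1 library 36 to 57 fell and 2 to 3 rose. Of all 15962 genes, 2596 fell and 2830 rose at 0.01, and 2978 fell with upper-quartile scaling. The interaction stayed at 0 in every fit, the replicate block and a block per number and day (chosen after seeing the data) included. The block changed no other count over all members by over 1.5 times. Of the other lists at day 2, with time and in the interaction, it took the cytosolic falls at day 2 from 7 to 1, and otherwise moved by over 1.5 times only counts of 2 or fewer. The median log2 fold change of the members over the 4 scalings was -0.14 to -0.10 and -0.07 to -0.05 for treatment at day 2 and day 4, and -0.28 to -0.22 and -0.20 to -0.14 for time in DMSO and 4OHT. The cause of these shifts was not tested, beyond the stricter threshold itself and the smaller number of samples.

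Without 1 library, the log2 difference of the summed level was -0.14 to -0.08 for treatment at day 2, -0.08 to -0.03 at day 4, -0.27 to -0.20 for time in DMSO and -0.21 to -0.15 in 4OHT. The log2 ratio of large to small was 1.26 to 1.27 and 1.25 to 1.25 at day 2 and 1.22 to 1.23 and 1.23 to 1.25 at day 4 (DMSO, then 4OHT), and with subunits by symbol 1.07, 1.06, 1.03 and 1.04. Depth limits Mrpl53 most, with 63 to 130 counts a library. A member that missed the threshold is not shown to be unaltered.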
